A study of Mus musculus with 30 samples.

Results

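CGR8 mouse embryonic stem cells carry no degron, so any response of these cells to the auxin indole-3-acetic acid (IAA) cannot come from degradation of SRCAP. The comparison was made to account for unspecific effects of the drug. It holds 4 of the 30 nuclear RNA-seq libraries, namely the 2 libraries labelled CGR8_NT and the 2 labelled CGR8_IAA, chosen by their labels and not by any measured value. The NT cells are labelled as controls and the IAA cells were kept in 500 µM IAA for 4 h. Both groups were the parental line grown in serum with LIF, with no tagged Srcap allele and no Tir1 receptor, and the study describes the 2 replicates of each as independent biological ones. They are set beside SYAT cells, made from a CGR8 clone with SRCAP-YPet-AID on both alleles. That clone received OsTir1, driven by the EF1a promoter, and cells that lost YPet with IAA were sorted. The other line set beside CGR8 is degron cells in which doxycycline had induced wtSRCAP. Each of these lines was compared with its own control at 4 h of IAA. Per the study's methods, controls of both degron lines were kept in auxinole, a Tir1 inhibitor, whereas none is stated for CGR8 controls, and the wtSRCAP cells were sorted for mCherry, the tag of the induced protein, before RNA was taken. SYAT cells come from 1 clone, taken before OsTir1 was added, and wtSRCAP cells from 1 clone of SYAT cells.

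IAA is a plant hormone that binds Tir1, and in a cell with OsTir1 it brings an AID-tagged protein to a ubiquitin ligase. In mammals it is a product of tryptophan breakdown, and indoles of this kind are known as ligands of the aryl hydrocarbon receptor, a transcription factor that switches on Cyp1a1 and Cyp1b1. Several other pathways are read out below. In the integrated stress response, kinases that sense amino acid shortage, unfolded protein, heme or viral RNA phosphorylate eIF2alpha, which allows translation of the transcription factor ATF4. ATF4 in turn activates genes for amino acid import, amino acid synthesis and tRNA charging, and its own feedback regulators. SREBP factors, held in the endoplasmic reticulum by INSIG proteins while sterols are plentiful, activate cholesterol and fatty acid synthesis.

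The exon columns summed to 45617992 and 52420355 counts in NT and to 53670669 and 60214521 after IAA, and the intron columns to between 3902509 and 7287893. NT replicate 1 stood apart from the other 3 libraries. Its log expression correlated with theirs at 0.962 to 0.963, while the other libraries correlated among themselves at 0.977 to 0.983. A single feature took 8.54% of its exon counts against 2.58% to 4.64%, the mitochondrial genes 0.575% against 1.06% to 2.01%, and it had 8.56 intron counts per 100 exon counts against 10.9 to 13.2. Values without this library, and without others where they move a count, are given beside the main gene groups. Srcap itself, the gene carrying the degron in the other lines, had 1135 and 1273 normalized exon counts in NT and 1132 and 1125 after IAA, and its log2 fold change was -0.09 (95% interval -0.45 to 0.27). All 8 embryonic stem cell markers were measured, with summed counts of 242200 and 199500 in NT and 233600 and 220800 after IAA. Of 8 fibroblast and feeder markers, 4 passed the filter on low counts, with sums of 819 and 772 against 829 and 818, while Col3a1, Postn, Dcn and Lum did not pass it. Summed markers of primitive endoderm were at 20120.0 and 19630.0 in NT and 17200.0 and 15620.0 after IAA, and those of neuroectoderm at 13080.0 and 11900.0 against 11180.0 and 9658, lower in both IAA libraries. At an unadjusted p under 0.05, 1 lower and 0 higher of 8 primitive endoderm genes and 1 lower and 1 higher of 6 neuroectoderm genes were found. Their part in the results below was not tested. In nuclear RNA from bulk cultures, fewer cells of a type and less RNA per cell cannot be told apart.

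Few genes passed the test in the exon column. Of 20250 genes tested with edgeR, 2 were lower after IAA (0.00988%) and 0 were higher (0%), at an adjusted p under 0.05 and an absolute log2 fold change above 0.5. At an unadjusted p under 0.05, 835 genes were lower (4.12%) and 1020 were higher (5.04%). DESeq2, the tool named by the study, gave adjusted p-values to 12269 genes and called 28 lower (0.228%) and 66 higher (0.538%). The median log2 fold change of all genes tested was -0.000302, with quartiles of -0.237 and 0.283. The NT and IAA libraries did not overlap for 4172 genes that were lower (20.6%) and 4382 that were higher (21.6%). Among genes that were tested with all 4 libraries in exons or introns, 680 were lower (3.32%) and 1258 higher (6.13%) at an unadjusted p under 0.05 without NT replicate 1. These shares were 10.2% and 15.7% without NT replicate 2, 2.71% and 4.65% without IAA replicate 1, and 0.920% and 1.17% without IAA replicate 2, with the smallest shares when IAA replicate 2 is left out. These shares are the background against which the counts of pathway members are read. Below, "rose" and "fell" are kept for genes that passed the adjusted test, and all other genes are given by their values.

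The 2 genes that fell were Atf4 and Slc1a4. Atf4 encodes the transcription factor at the centre of the integrated stress response (GRCm38 chr15:80255184-80257541, plus strand). Its normalized exon counts were 6078 and 5101 in NT and 1868 and 1999 after IAA, that is 5590.0 ± 691 against 1933 ± 93.1 (SD, n = 2). The log2 fold change was -1.53 (SE 0.149, edgeR adjusted p = 0.0444), with a 95% interval of -1.87 to -1.19. Slc1a4 encodes a transporter of alanine, serine and cysteine (chr11:20302180-20332713, minus strand) and had 1782 and 2271 counts in NT and 571 and 577 after IAA. It fell by 1.82 on the log2 scale (SE 0.178, edgeR adjusted p = 0.0444, 95% interval -2.23 to -1.42). In both genes the groups lay far apart, and the call was kept with each library left out, with the replicate block and in DESeq2.

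Genes next in order belonged to the same response. Chac1, a glutathione-degrading enzyme and a classical ATF4 target, had 474 and 547 counts in NT and 80.7 and 44.2 after IAA. Its log2 fold change of -3.04 (SE 0.325) missed the adjusted threshold in edgeR (adjusted p = 0.0618) and passed it in DESeq2 (adjusted p = 3.19e-13). Trib3, a pseudokinase that restrains ATF4, had 2013 and 1472 counts in NT and 648 and 455 after IAA (log2 fold change -1.66, edgeR adjusted p = 0.265). Stc2, a secreted glycoprotein induced by stress, had 765 and 939.6 counts in NT and 382 and 416 after IAA (-1.09, edgeR adjusted p = 0.54). In each of these genes the IAA libraries lay below both NT libraries. Cebpb, a transcription factor that can pair with ATF4, had 426 and 311 counts against 171 and 151. DESeq2 called Stc2, Trib3 and Cebpb as well as Chac1 and Atf4.

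**Figure D1:**
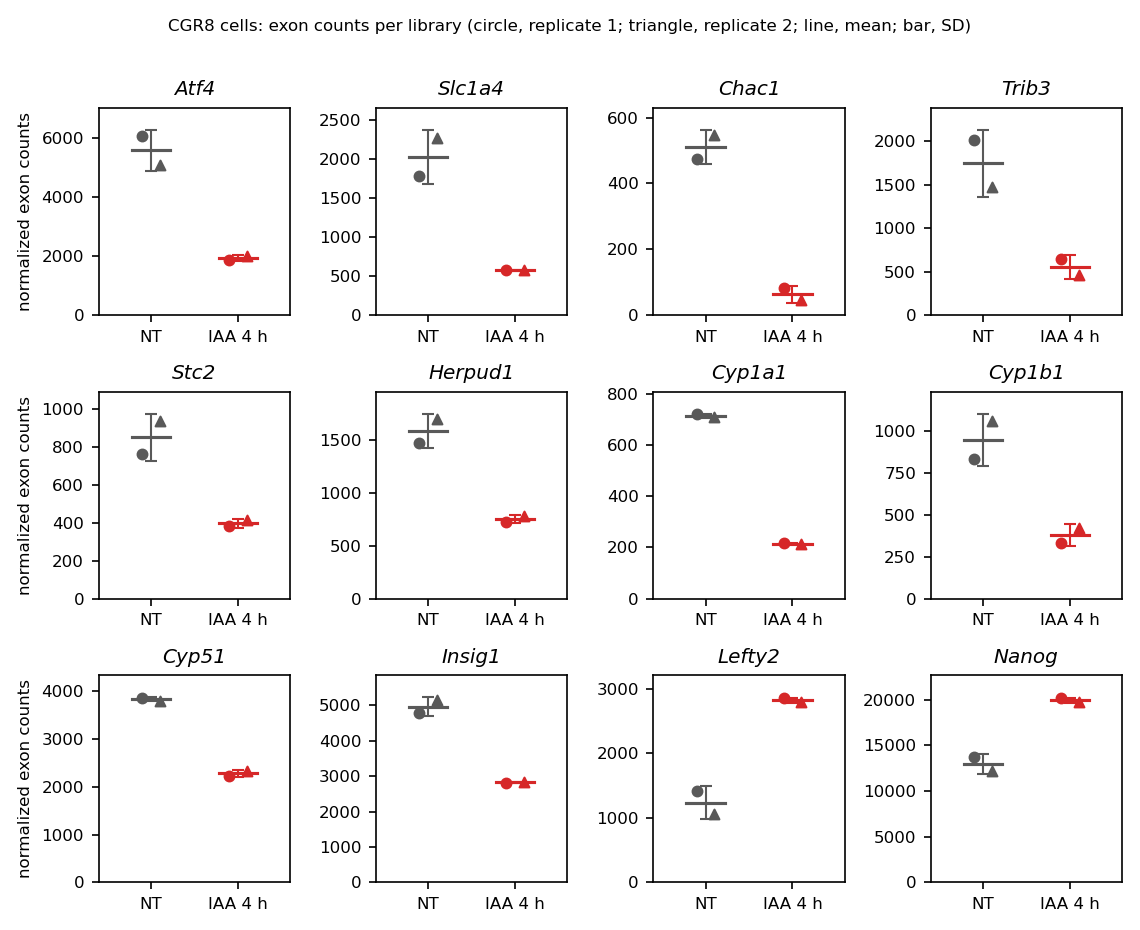
Normalized exon counts (y axis, from 0) of 12 genes in the 2 NT and 2 IAA libraries of CGR8 cells; circles are replicate 1, triangles replicate 2, lines group means and bars SD. The IAA libraries lie below the NT libraries in 10 genes, from Atf4 (1868 and 1999 against 6078 and 5101) to Insig1, and above them in Lefty2 and Nanog.

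Over the whole list of 25 genes of the integrated stress response, 24 were tested and Fgf21 did not pass the filter. At an unadjusted p under 0.05, 15 were lower and 0 higher, and the median log2 fold change was -0.49, where all genes had -0.000302. The groups did not overlap for 17 members that were lower. Without NT replicate 1, 12 members were lower and 0 higher, and the median was -0.396. Without IAA replicate 2 they were 9 and 0, with a median of -0.397. The members were not alike. Besides the genes above, Vldlr (a lipoprotein receptor) had 103 and 105 counts against 17.5 and 32.3, Nupr1 (a small stress-induced chromatin protein) 152 and 113 against 53.5 and 28.9, and Gdf15 (a stress-induced cytokine) 179 and 255 against 75.9 and 92.7. The transcription factors Atf5 and Ddit3 had log2 fold changes of -0.88 and -0.91. Asns, asparagine synthetase, a gene on which ATF4 action was worked out, had 9328 and 8159 counts in NT and 7978 and 8162 after IAA (log2 fold change -0.12, 95% interval -0.42 to 0.19). Ppp1r15a, the phosphatase subunit that reverses eIF2alpha phosphorylation, was at 0.01 (-0.35 to 0.37). Of the 4 eIF2alpha kinases, Eif2ak3, which senses unfolded protein, was at -0.47 (edgeR adjusted p = 0.54), and Eif2ak1, Eif2ak2 and Eif2ak4 were at -0.19, 0.32 and 0.04 without an unadjusted p under 0.05.

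The promoters of these genes were searched for the C/EBP-ATF response element, TGATGNAA on either strand, at which ATF4 is known to bind with a C/EBP partner. Windows of 300 bases, 250 before and 50 after the annotated start, came from RefSeq (GRCm38.p6). The element was in 1304 of 32851 windows (3.97%), and in 7 of the 28 windows of the stress response list, which covered 22 of its 24 tested genes. It was in 4 of 19 windows of amino acid transporters (21.1%), 2 of 13 of the serine list (15.4%) and 5 of 12 of the cytosolic tRNA synthetases (41.7%). Members of the first 2 lists with a match were Chac1, Trib3, Vldlr, Nupr1, Jdp2 and Slc1a4, which had lower values, Asns, Atf3 and Slc7a11, whose exon counts gave no unadjusted p under 0.05, and Slc7a7, which had matches in both of its overlapping windows and higher values (0.42). A match is a description of the letters only. The windows of Slc1a4, Chac1 and Trib3 are shown because these genes had the lowest p-values among members with a match, in the direction of transcription with the element in capitals. The match begins at position -4 in Slc1a4, -193 in Chac1 and 14 in Trib3, counted from the annotated start.
Slc1a4, chr11:20332664-20332963, strand -: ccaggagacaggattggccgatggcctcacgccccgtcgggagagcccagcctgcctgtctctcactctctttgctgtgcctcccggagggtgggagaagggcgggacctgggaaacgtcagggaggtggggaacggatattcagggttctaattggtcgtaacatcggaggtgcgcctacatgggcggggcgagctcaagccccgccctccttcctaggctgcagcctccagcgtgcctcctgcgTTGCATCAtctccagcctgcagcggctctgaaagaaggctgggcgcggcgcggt
Chac1, chr2:119350992-119351291, strand +: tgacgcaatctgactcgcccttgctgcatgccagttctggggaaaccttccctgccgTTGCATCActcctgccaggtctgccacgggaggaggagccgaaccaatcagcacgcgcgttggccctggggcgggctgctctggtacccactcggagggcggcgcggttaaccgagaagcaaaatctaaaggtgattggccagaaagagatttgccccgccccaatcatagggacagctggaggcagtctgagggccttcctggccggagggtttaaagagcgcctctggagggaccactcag
Trib3, chr2:152344011-152344310, strand -: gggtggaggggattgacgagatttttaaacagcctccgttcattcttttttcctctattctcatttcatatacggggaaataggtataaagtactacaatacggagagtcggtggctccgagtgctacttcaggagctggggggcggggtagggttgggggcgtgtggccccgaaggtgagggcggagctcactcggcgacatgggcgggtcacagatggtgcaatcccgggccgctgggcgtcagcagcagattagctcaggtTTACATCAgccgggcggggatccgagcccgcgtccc

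Amino acid transporters had values on both sides of 0. Of 16 tested, 4 were lower and 1 higher at an unadjusted p under 0.05 (without NT replicate 1 also 4 and 1, without IAA replicate 2 only 2 and 0), and the median was -0.0961. Beside Slc1a4, the lower genes were Slc7a1, which imports arginine and lysine (5888 and 6903 against 3789 and 3952, log2 fold change -0.72, DESeq2 adjusted p = 0.00163), Slc6a9, a glycine transporter (199.6 and 228 against 109 and 101, -1.02), and Slc1a5, a glutamine transporter (3068 and 2983 against 2396 and 2168, -0.41). Slc7a7, which exports cationic amino acids, was the higher gene, at 6505 and 6786 against 8749 and 9094. The most abundant transporters had values near 0, with Slc7a5 at -0.10, its partner Slc3a2 at -0.10 and Slc38a2 at -0.01. Slc7a11, the cystine importer that supplies glutathione synthesis, was at -0.29 with an interval of -0.75 to 0.18.

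Genes of serine, folate and asparagine synthesis gave 4 lower and 0 higher of 16 tested, with a median of -0.164 (without NT replicate 1, 2 lower and -0.0463, and without IAA replicate 2, 1 lower). Mthfd2, a mitochondrial folate enzyme, had 4093 and 4384 counts in NT and 2796 and 2904 after IAA (-0.57, 95% interval -0.88 to -0.27). Aldh18a1, of proline synthesis, Mthfd1l, a further folate enzyme, and Phgdh, which starts serine synthesis, were at -0.44, -0.43 and -0.45, whereas Psat1, the next enzyme of the serine pathway, was at -0.10. Of 20 cytosolic aminoacyl-tRNA synthetases, which load amino acids onto their tRNAs, 8 were lower and 0 higher, with a median of -0.236. Yars (10803 and 8229 against 6504 and 5809, -0.63), Nars (-0.51), Cars (-0.46) and Aars (-0.45) led them, and Wars, the enzyme for tryptophan, was at 0.02. Without NT replicate 1 the count was 4 and the median -0.104, and without IAA replicate 2 the count was 1. The synthetases of mitochondria gave 2 lower and 0 higher of 17, with a median of -0.0418, and without NT replicate 1 they gave 0 lower and 1 higher, with a median of 0.0872.

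Several chaperones of the endoplasmic reticulum had lower values. Of 22 genes of the unfolded protein response tested, 10 were lower and 0 higher at an unadjusted p under 0.05, the median was -0.302, and the groups did not overlap for 15 that were lower (without NT replicate 1, 7 lower and a median of -0.286, and without IAA replicate 2, 3 lower and -0.316). Herpud1, a component of the machinery that degrades misfolded proteins and the member of lowest p-value, had 1471 and 1701 counts in NT and 725 and 783 after IAA (-1.07, edgeR adjusted p = 0.31, DESeq2 adjusted p = 5.86e-05). Hspa5, the main chaperone of this compartment, had 50620.0 and 43433 counts against 31533 and 33815 (-0.53, 95% interval -0.83 to -0.22). Creld2, Sdf2l1, Pdia6, Hyou1 and Calr, which assist folding, had log2 fold changes of -0.57, -0.54, -0.42, -0.41 and -0.37. Xbp1, a transcription factor of the response, was at -0.24, and Dnajb9 at 0.47 with an interval of -0.21 to 1.15, and the chaperones Hsp90b1 and Canx were at -0.11 and -0.05. The ER stress element, CCAAT and CCACG with 9 bases between them on either strand, was in 39 of all 32851 promoter windows (0.119%) and in 8 of the 19 windows of this list (42.1%). A match describes the letters only, and this share is no measure of the response to IAA. Hsp90b1 and Canx were among the members with a match, and Herpud1 was not. Hspa5 and Creld2 are shown for the element, the latter with it on the opposite strand, starting at positions -65 and -126.
Hspa5, chr2:34771840-34772139, strand +: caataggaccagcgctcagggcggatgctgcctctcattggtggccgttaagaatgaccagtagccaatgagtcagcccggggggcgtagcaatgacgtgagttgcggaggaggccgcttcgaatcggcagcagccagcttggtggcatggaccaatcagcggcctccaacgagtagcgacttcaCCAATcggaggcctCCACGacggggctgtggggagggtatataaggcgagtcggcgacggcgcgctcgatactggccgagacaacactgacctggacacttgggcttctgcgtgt
Creld2, chr15:88819396-88819695, strand +: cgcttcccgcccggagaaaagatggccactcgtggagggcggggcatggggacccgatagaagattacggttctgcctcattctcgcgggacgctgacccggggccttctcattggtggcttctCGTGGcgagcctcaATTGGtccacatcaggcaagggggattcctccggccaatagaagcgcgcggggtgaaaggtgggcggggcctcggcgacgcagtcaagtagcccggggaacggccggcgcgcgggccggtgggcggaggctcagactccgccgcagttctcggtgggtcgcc

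The heat shock response of the cytosol, listed separately, gave values on both sides of 0. Of its 17 genes, 1 was lower (Hspa1b, -0.39) and 2 were higher (Hspa8 at 0.40 and Hspe1 at 0.43), and the median was 0.048 (0 and 0 without NT replicate 1 or without IAA replicate 2). Hsph1 and Dnajb1, a large chaperone and a co-chaperone, were at -0.04 and 0.05.

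**Figure D2:**
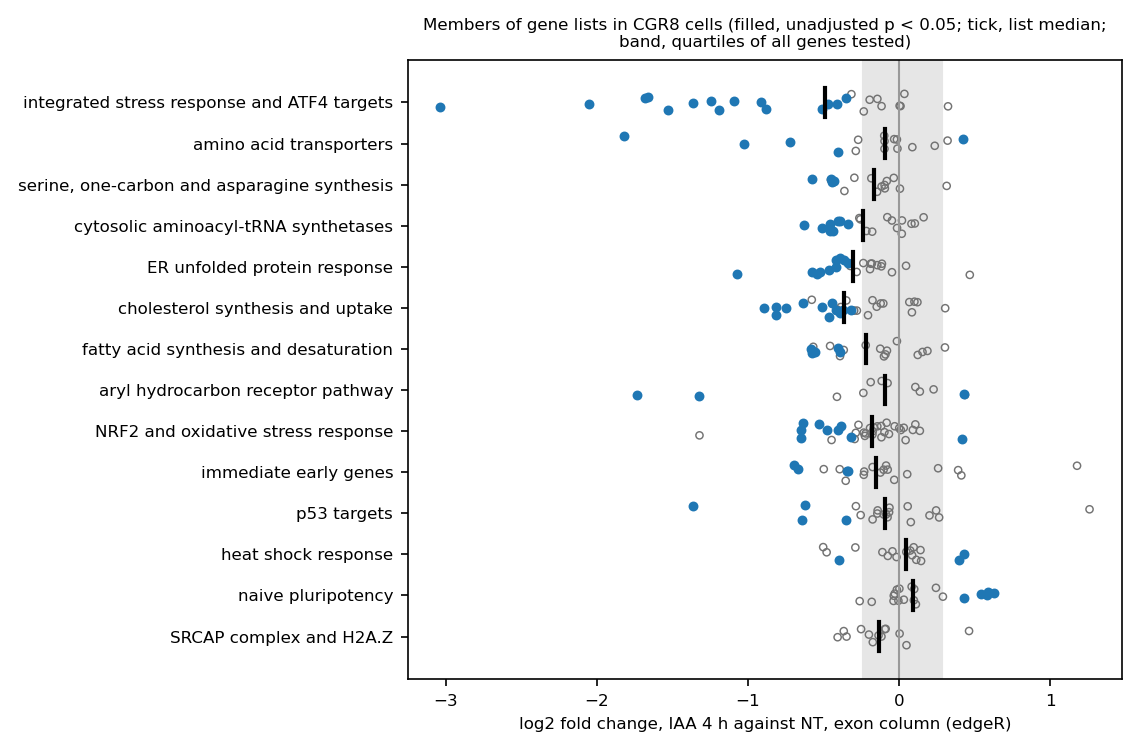
Log2 fold changes in the exon column (x axis, IAA 4 h against NT, edgeR) of the members of 14 gene lists; filled points have an unadjusted p under 0.05, ticks are list medians and the grey band spans the quartiles of all genes tested (-0.237 to 0.283). The stress response, ER and cholesterol lists have medians of -0.49, -0.302 and -0.361, outside the band, and hold no filled point to the right of 0.

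Cholesterol genes formed the other large group with lower values. Of 28 genes of synthesis and uptake tested, 12 were lower and 0 higher at an unadjusted p under 0.05, with a median of -0.361, and the groups did not overlap for 21 that were lower and 0 that were higher. Without NT replicate 1 the counts were again 12 and 0, with a median of -0.328, but without either IAA replicate 7 were lower, with medians of -0.272 and -0.378. Insig1, the SREBP target that retains SREBP in the endoplasmic reticulum, had 4783 and 5143 counts against 2810.1 and 2829.6 (-0.82, DESeq2 adjusted p = 7.06e-05). Cyp51, a demethylase of the pathway, had 3860.1 and 3802 counts against 2228 and 2334 (-0.75, DESeq2 adjusted p = 0.00107). In both genes the IAA libraries lay close together and far below NT. Srebf2, the main regulator, was at -0.45, and Sqle at -0.10 with an interval of -0.40 to 0.19.

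Fatty acid genes gave 5 lower and 0 higher of 19, with a median of -0.22 (without NT replicate 1, 4 lower and -0.115, and without NT replicate 2, 8 lower and 1 higher). They were the desaturases Scd2 (45888 and 55972 against 32858 and 35040.0, -0.59), Scd1 (-0.58) and Fads2 (-0.40), the regulator Srebf1 (-0.55) and the synthase Fasn (-0.39). The sterol regulatory element, TCACNCCAC on either strand, was in 1.24% of all promoter windows, in 1 of 26 windows of the cholesterol list (3.85%) and in 1 of 22 of the fatty acid list (4.55%). Targets of LXR and PPAR, the nuclear receptors for oxysterols and fatty acids, gave 0 lower and 0 higher of 14 in edgeR at an unadjusted p under 0.05, with a median of -0.000408, and 0 calls in DESeq2.

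Cyp1a1 and Cyp1b1, the enzymes by which aryl hydrocarbon receptor activity is commonly read, were lower after IAA. Cyp1a1 had 719.5 and 709 counts in NT and 217 and 213 after IAA, a log2 fold change of -1.73 (SE 0.196, edgeR adjusted p = 0.0711, DESeq2 adjusted p = 3.81e-08). Cyp1b1 had 838 and 1059 counts against 332 and 425 (-1.32, edgeR adjusted p = 0.385, DESeq2 adjusted p = 0.000114). For both genes the IAA counts were below NT in every library. The other members of the list did not share these values. Ahr, the receptor, had 481 and 549 counts against 702 and 689 (0.43, edgeR adjusted p = 0.544), Ahrr, its repressor, was at -0.41 with an interval of -1.38 to 0.56, and Tiparp, a target that limits the receptor, was at 0.23. Over 12 genes tested, 2 were lower and 1 higher with a median of -0.0953 (without either IAA replicate 2 and 0), and Ugt1a6a and Gsta1 did not pass the filter. Genes of tryptophan and indole metabolism gave 1 lower and 1 higher of 16, and those of drug transport and conjugation 2 lower and 3 higher of 22. With a library left out, these counts lay between 0 and 6.

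Genes of the NRF2 and oxidative stress response gave 8 lower and 1 higher of 35 tested, with a median of -0.176. The lower genes were led by 2 regulators of the pathway. Mafg, a small partner of NRF2, had 10566 and 9740.5 counts in NT and 6790.4 and 6152 after IAA (-0.65, 95% interval -0.95 to -0.35, DESeq2 adjusted p = 0.00313). Bach1, a repressor of NRF2 targets, had 3228 and 3167 counts against 2038 and 2041 (-0.65, DESeq2 adjusted p = 0.0101). The antioxidant targets did not follow in one direction, with Hmox1 at -0.23, Srxn1 at -0.27 and Prdx1 at 0.42. Without NT replicate 1 the list gave 2 lower and 1 higher, with a median of -0.0908, without NT replicate 2 it gave 12 lower, and without IAA replicates 1 and 2 in turn 4 and 2. Immediate early genes gave 4 lower and 0 higher of 20 (Jun, Jund, Junb and Klf6, from -0.70 to -0.34), with Fos at -0.23 and Egr1 at 0.39, and 3 lower and 1 higher without NT replicate 1 and 1 lower without IAA replicate 2. Targets of p53 gave 4 lower and 0 higher of 20, of which Gdf15 and Sesn2 are also members of the stress response list, and 1 lower without NT replicate 1 or without IAA replicate 2.

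Members of the pathway lists that DESeq2 called higher were Nanog, Lefty1 and Lefty2, of 66 genes called. Of 20 genes of naive pluripotency, 0 were lower and 5 higher at an unadjusted p under 0.05, again 0 and 5 without NT replicate 1, and the median was 0.0908. Without NT replicate 2 they were 2 and 6, and without IAA replicate 1 they were 0 and 2. Nanog, a core pluripotency factor, had 13698 and 12161 counts in NT and 20160.0 and 19758 after IAA (0.63, 95% interval 0.33 to 0.92, edgeR adjusted p = 0.54, DESeq2 adjusted p = 0.00308). Tdgf1, the Nodal co-receptor, was at 0.54, Prdm14 at 0.59, Tbx3 at 0.58 and Gbx2 at 0.43, while Pou5f1, Sox2 and Klf4 were at -0.26, 0.11 and -0.00 without an unadjusted p under 0.05. Lefty2, a secreted Nodal inhibitor that Nodal itself induces, had 1417 and 1062 counts against 2857 and 2801 (1.19, 95% interval 0.80 to 1.59, edgeR adjusted p = 0.273, DESeq2 adjusted p = 5.63e-07). Lefty1, its neighbour on chromosome 1 and of the same function, had 1467 and 976 counts against 2152 and 2007 (0.77, DESeq2 adjusted p = 0.0453). In these 3 genes the IAA libraries lay above both NT libraries. Adgre5, an adhesion receptor, had 1472 and 1948 counts against 3020.2 and 3109 (0.84), and Slc16a3, a lactate exporter, 7066 and 7208 against 11159 and 10683 (0.61). Ppia, a prolyl isomerase, had 36937 and 39871 counts against 55601 and 65113 (0.65), Mob4 690.0 and 971 against 1536 and 2047 (1.11), Lrrc2 505 and 514 against 866 and 937 (0.82) and the zinc finger gene Zfp459 1177 and 1124 against 1953 and 2266 (0.88). DESeq2 called these 6 genes as well.

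Many genes with higher values fell into families that were recognised by symbol after the values had been seen. Of 55 protein coding Zfp genes with a 3-digit number that starts with 9, mostly KRAB zinc finger genes in clusters of close copies, 29 were higher and 0 lower at an unadjusted p under 0.05, with a median of 0.652. Their summed counts were 40274 and 59506 in NT and 69909 and 99056 after IAA, lowest in NT replicate 1, the library that stands apart. Of 1994 tested genes of a pseudogene biotype, 221 were higher and 24 lower, and of 59 replication-dependent histone genes 18 were higher and 3 lower. Summed counts were 565430.0 and 615200.0 against 675530.0 and 700260.0 for the pseudogenes and 502800.0 and 383140.0 against 409530.0 and 395470.0 for the histone genes, highest in NT replicate 1. Without NT replicate 1, 220 pseudogenes and 17 histone genes were higher and 49 and 0 lower, and without IAA replicate 2, 73 and 6 were higher. Hist1h4n, with 378 and 499 counts against 1093 and 1694 (1.67), had the second lowest p-value among named genes with higher values. The 7 mitochondrially encoded genes tested had a median of 0.846, with summed counts of 252840.0 and 481370.0 in NT and 487230.0 and 784800.0 after IAA, so that NT replicate 2 and IAA replicate 1 were nearly equal. Without NT replicate 1 the median was 0.457 for the mitochondrial genes and 0.481 for the zinc finger genes, of which 28 were then higher (11 without IAA replicate 2). Reads of close copies can be split between them by the counting, and the part of library composition in these values was not tested. Of the 66 genes that DESeq2 called higher, 20 had a pseudogene biotype and 10 were Zfp genes. The lists written for pathways held 3 of the 66 higher and 15 of the 28 lower genes, and they made up 4.68% of the genes that DESeq2 tested. These lists were chosen with earlier results of these data known, so the shares are a description only.

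**Figure D3:**
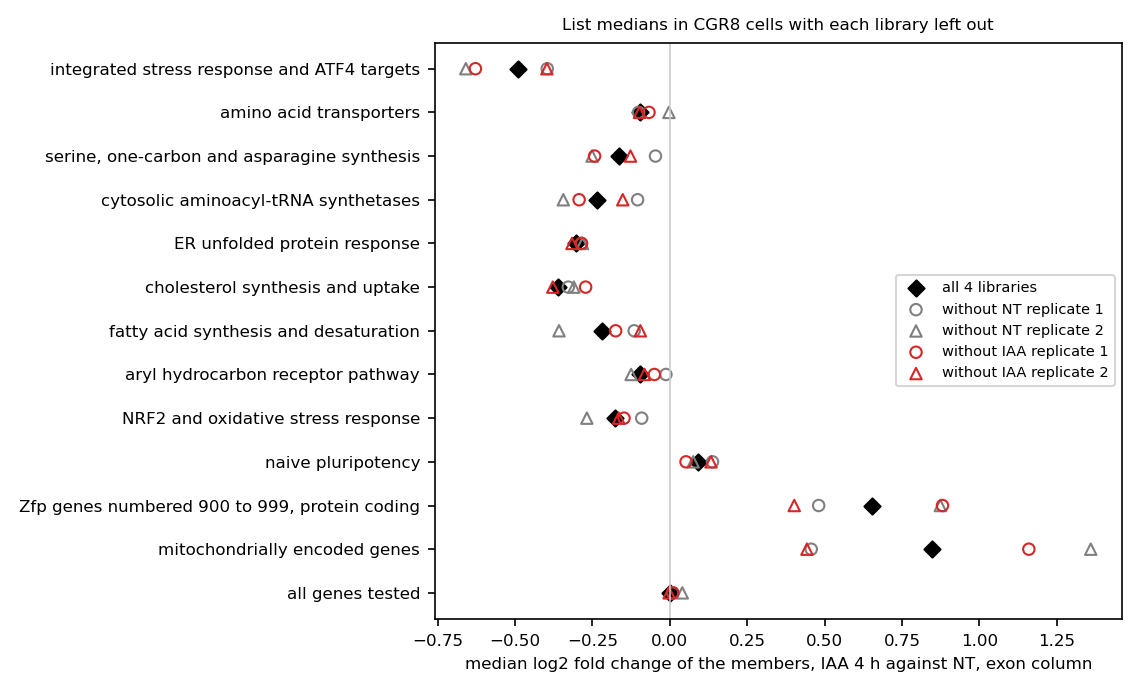
Median log2 fold change (x axis, exon column) of the members of 12 gene groups and of all genes tested in CGR8 cells, with all 4 libraries (black diamonds) and again after removal of 1 library at a time. The stress response median stays between -0.66 and -0.396 and the cholesterol median below -0.25, whereas the mitochondrial median ranges from 0.44 to 1.36.

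No member of the SRCAP complex list was called in the main fit or by DESeq2. Of 13 genes, 0 were lower and 0 higher in edgeR at an unadjusted p under 0.05, and the median was -0.136. At the same threshold DESeq2 gave 1 lower and 0 higher, and the replicate block 3 lower and 1 higher. Without NT replicate 2, 5 were lower and 1 higher. H2afz, the variant histone gene, was at -0.12 with an interval of -0.41 to 0.18. The endogenous ubiquitin ligase components that a degron uses gave 0 lower and 1 higher of 7, the scaffold Cul1 at 0.37 (edgeR adjusted p = 0.54).

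Other lists are given by their counts at an unadjusted p under 0.05. Hypoxia genes gave 1 lower and 2 higher of 21, with a median of 0.185, namely Vegfa, the angiogenic factor, at -0.47, Adm, a vasodilator peptide, at 2.96 and Slc2a1, a glucose transporter, at 0.30, and glycolysis 0 and 1 of 16. Metal response genes gave 1 and 2 of 9, with the metallothioneins Mt1 and Mt2 at -0.37 and -0.35, Slc39a10, a zinc importer, at 0.66 and Tfrc, the transferrin receptor, at 0.38. The circadian clock gave 1 and 2 of 18, with Dbp at -0.48 and Per1 at -0.08, and interferon and NF-kB genes 1 and 2 of 16, with Nfkbia at 0.01. Feedback genes of FGF and ERK signalling gave 0 and 1 of 14, namely Spry4 at 0.37, while Dusp6 was at 0.04. Targets of LIF and STAT3 gave 2 and 1 of 12, with Socs3 at -0.26. Genes of formative pluripotency gave 2 and 4 of 16, among them Otx2 (1976 and 2696 against 3328 and 3588, 0.57) and Fgf5 (49.3 and 27.5 against 114 and 85.1). DNA replication genes gave 0 and 1 of 20 and mitosis genes 0 and 2 of 20. Nuclear-retained long noncoding RNAs gave 2 and 0 of 11, with Neat1, the scaffold of paraspeckles, at -0.62 and Malat1 at -0.23. Among p53 targets, Cdkn1a, Mdm2 and Ccng1 were at -0.29, -0.14 and 0.20. With a library left out, the list counts given here lay between 0 and 4. None of the genes in this paragraph passed the adjusted test in edgeR or DESeq2.

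The intron column reports unspliced RNA, which in nuclear preparations lies nearer to transcription than the exon column. Of 13634 genes tested, 1 was lower (0.00733%) and 2 were higher (0.0147%), and 365 were lower (2.68%) and 350 higher (2.57%) at an unadjusted p under 0.05. The called genes were not pathway members. Each was listed at 0 in both libraries of a group, and the exon log2 fold change was 0.07 in Cebpz, -0.46 in Fam117a and -0.35 in Lrrc75a. All 3 calls were lost without IAA replicate 2 (edgeR adjusted p = 0.077, 0.077 and 0.106). Zfp605, a zinc finger gene, had 235 and 356 intron counts in NT and 537 and 975 after IAA (1.35), beside 0.07 in exons. Atf4 and Srcap were listed at 0 introns in every library. Slc1a4 introns gave 440.0 and 511 normalized counts in NT and 181 and 177 after IAA, a log2 fold change of -1.41 (edgeR adjusted p = 0.114) beside -1.82 in exons. Trib3 introns gave 97.3 and 113 counts against 15.1 and 25.8 (-2.35), and Slc7a1 introns 1010.3 and 996 against 547 and 455. In all 3 genes intron and exon counts were lower after IAA.

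Several members had lower intron counts with little difference in exons. Asns introns were at 889 and 963 in NT and 608 and 617 after IAA (-0.60, edgeR adjusted p = 0.756) beside -0.12 in exons. Psat1 introns were at 956 and 965 against 614 and 567 (-0.70 beside -0.10), Iars introns at 1628 and 1455 against 946 and 813 (-0.81 beside -0.18) and Tars introns at 395 and 306 against 184 and 218 (-0.80 beside -0.08). In these genes the intron counts did not overlap between the groups. The reverse was seen in Cyp51, at 0.11 in introns and -0.75 in exons. Over whole lists there was no common order of the 2 columns. Among members with a mean of at least 50 normalized intron counts, the intron value lay below the exon value in 9 of 14 stress response genes, 9 of 19 tRNA synthetases, 11 of 20 cholesterol genes, 11 of 17 fatty acid genes and 7 of 19 ER genes. At an unadjusted p under 0.05, 10 of 18 stress response genes, 7 of 19 synthetases, 5 of 22 cholesterol genes and 1 of 20 ER genes were lower in introns and 0 of these were higher.

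**Figure D4:**
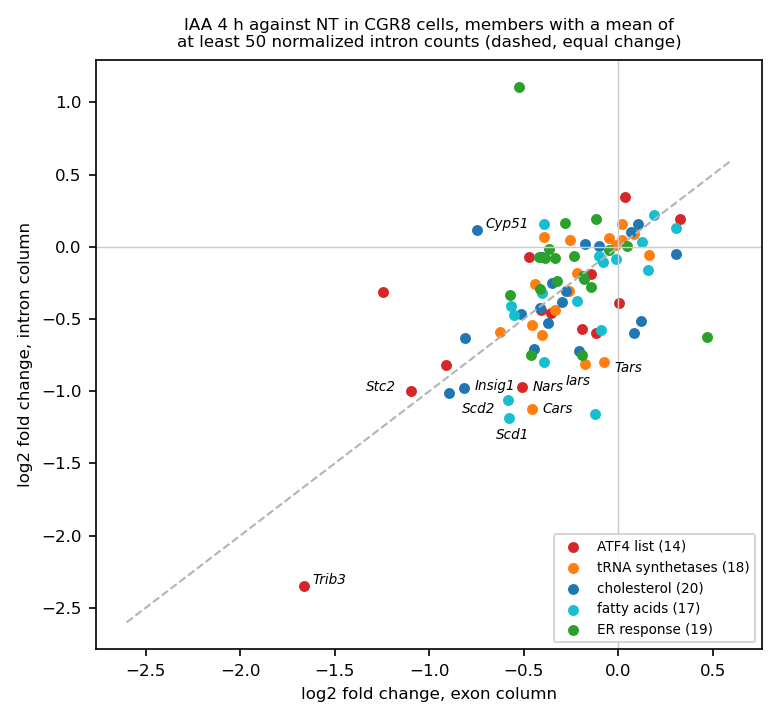
Log2 fold change in the intron column (y axis) against that in the exon column (x axis) for members of 5 lists with a mean of at least 50 normalized intron counts, each gene drawn once; the dashed line marks equal change. Trib3 is lowest on both axes (-1.66 and -2.35), Iars and Tars lie below the line and Cyp51 above it.

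Degron cells were treated with the same drug, and their response at 4 h was set beside that of CGR8 cells. The SYAT fit held all 10 libraries of the IAA time course. The wtSRCAP fit held 8 libraries, of wtSRCAP cells and of cdSRCAP cells, which express a catalytically dead SRCAP. The further libraries entered the filter, the scaling and the estimate of the spread, but not the comparisons. In SYAT cells 0 of 19205 genes were called lower and 0 higher (0%) by edgeR, with 1152 lower (6.00%) and 593 higher (3.09%) at an unadjusted p under 0.05, and DESeq2 called 46 and 5. In wtSRCAP cells 1 of 19111 genes was called lower (0.00523%) and 0 higher, with 856 lower (4.48%) and 559 higher (2.93%) at an unadjusted p under 0.05. The gene called was Chac1, with 269 and 265 counts in auxinole and 19.7 and 16.5 with IAA (-3.90, edgeR adjusted p = 0.0367). In SYAT cells the same gene went from 97.2 and 59.1 counts with auxinole to 23.1 and 14.6 with IAA (-2.06, not called). The IAA libraries of all 3 lines thus lay below their own controls for Chac1.

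Differences between the lines were tested in 1 model each, fitted on the CGR8 libraries together with all libraries of the SYAT or the wtSRCAP fit. For CGR8 minus SYAT, 0 of 20169 genes passed in either direction with edgeR (DESeq2, 2 and 15), and 504 (2.50%) and 1109 (5.50%) had an unadjusted p under 0.05 with a lower or higher response in CGR8. For CGR8 minus wtSRCAP cells, 0 of 20372 passed (DESeq2, 0 and 2), with 777 (3.81%) and 870 (4.27%) at an unadjusted p under 0.05. No gene named here therefore passed the edgeR test of the difference without a replicate block, and for CGR8 minus wtSRCAP cells this depends on the block. Atf4 went from 1972 and 1526 counts with auxinole to 1264 and 1252 with IAA in SYAT cells (-0.48), and was at 2650.5 and 2438 against 1529.5 and 1097 in wtSRCAP cells (-0.96). Its response in CGR8 was lower by 1.04 than in SYAT (edgeR adjusted p = 0.367) and by 0.59 than in wtSRCAP cells (edgeR adjusted p = 0.637). Counts of each line are scaled within its own table, so levels are not compared between lines. Line, degron and auxinole in the controls of both degron lines cannot be told apart in these differences.

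Other members fell into sets by their values in the 3 lines. Slc7a1 had log2 fold changes of -0.72 in CGR8, -0.52 in SYAT and -0.65 in wtSRCAP cells, Mthfd2 had -0.57, -0.57 and -1.16, and Herpud1 had -1.07, -0.58 and -1.65. On the other side of 0, Adgre5 had 0.84, 1.09 and 1.02, Nanog 0.63, 0.68 and 0.55, and Lefty2 1.19, 0.81 and 1.98. For these 6 genes the 3 lines gave the same sign. Stc2 was at -1.09 in CGR8 but at 0.04 and -0.06 in the degron lines, where its counts were 309 and 229.6 against 292 and 260.4, and 459 and 364 against 443 and 346. Bach1 was at -0.65 in CGR8 and at 0.24 and 0.43 in the others (differences of -0.88 and -1.09, edgeR adjusted p = 0.402 and 0.592). Cyp1b1 was at -1.32, -0.39 and -0.16, and Cyp1a1 at -1.73, -0.83 and -0.69. Over lists, the stress response genes had medians of -0.49, -0.222 and -0.337 in CGR8, SYAT and wtSRCAP cells, the cholesterol genes -0.361, -0.191 and -0.355, and the ER genes -0.302, -0.181 and 0.0408. The Zfp genes with a 3-digit number that starts with 9 had 0.652, -0.268 and -0.665, and the mitochondrial genes 0.846, 0.107 and -0.263. Among the wtSRCAP libraries, IAA replicate 1 stood apart. A single feature took 23.9% of its exon counts against 5.99% to 16.4% in the others, and mitochondrial genes 0.215% against 0.609% to 0.683%. The part of this library in the wtSRCAP medians was not tested.

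**Figure D5:**
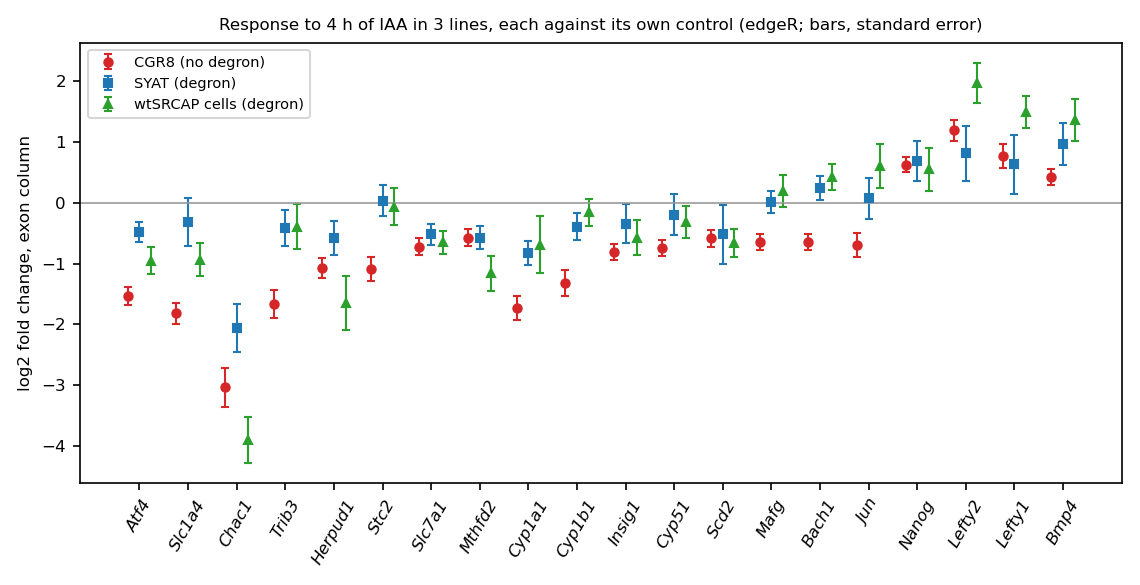
Log2 fold change at 4 h of IAA (y axis, exon column, edgeR, bars are SE) of 20 genes in CGR8, SYAT and wtSRCAP cells, each against its own control. Chac1 is the lowest point of each line (-3.04, -2.06 and -3.90), and Nanog, Lefty2, Lefty1 and Bmp4 lie above 0 in all 3 lines.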

How the data were processed

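Nuclear RNA of CGR8 cells was sequenced in 4 libraries, 2 per group. Per the study's methods the authors aligned reads to mm10 with STAR, counted them with featureCounts on exons and introns of GENCODE genes and deposited raw counts per gene, whole numbers without normalization. A strand setting of the counting is not given in the sources used here, so antisense overlaps (as in Ddit3 and Mars) may share reads. The authors' deposited tables of comparisons, with fold changes and p-values, were not used. Here, counts of 55401 genes were filtered with filterByExpr (minimum 10, total 15), scaled by TMM and tested with the quasi-likelihood test of edgeR 4.0.16 in R 4.3.3, with Benjamini-Hochberg adjustment over all genes tested, and alternatively with DESeq2 1.42.0 and its shrinkage of type normal. Normalized counts are counts scaled to a common library size. Symbols and coordinates are those of GENCODE on GRCm38, in which 55141 identifiers matched. On simulated data of the exon comparison, 200 of 20250 genes were changed, all of them above the median abundance. There edgeR recovered 171 at a log2 change of 1 and 200 at a log2 change of 2. It also called 11 and 17 unchanged genes. All simulated libraries were drawn around the same mean share per gene, so the composition of NT replicate 1 was not reproduced. Recovery of less abundant genes was not tested.

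Genes named are Srcap, the 10 of lowest p in each direction with a named protein coding or lncRNA gene and groups that do not overlap, key members of the lists, genes called in introns and those the study labels. A few results that the rule covers are not reported here. Further list members are named as examples and were chosen after their values were seen. The gene lists were written from general knowledge, and the members and lists were chosen with earlier results of these data known. P-values rest on the spread between biological replicates, 2 per group, which the fits share in part over genes. In the degron lines and the tests between lines this spread is also taken over the other groups of the fit.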

Additional observations from a re-analysis of the deposited data

Results flagged for a closer look

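Among the 90 named genes, those with an unadjusted p under 0.05 in CGR8 were screened for opposite responses in the degron lines. In 3 the groups did not overlap in CGR8 or in wtSRCAP cells and lay in opposite directions. Of all 20250 genes tested, CGR8 groups did not overlap for 20.6% that were lower and 21.6% that were higher. The share opposite in wtSRCAP cells was not counted over all genes. The wtSRCAP IAA group includes replicate 1, the library that stood apart. Fads2, a fatty acid desaturase, was at -0.40 in CGR8 cells and 0.19 in wtSRCAP cells, a difference of -0.608 (edgeR adjusted p = 0.596). Fasn, fatty acid synthase, differed by -0.576 (edgeR adjusted p = 0.623). Phgdh, of serine synthesis, differed by -0.781 (edgeR adjusted p = 0.662). No difference passed the adjusted test.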

How the results depend on the processing

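Counts of genes called lower and higher in the CGR8 exon column, 2 and 0 with all genes and libraries, were 110 and 276 without a filter on low counts, 4 lower at a mean count of at least 50, 28 and 66 with DESeq2, 4 lower with exon and intron counts summed, and between 3 and 890 lower and between 0 and 1471 higher with 1 library left out. The highest counts came without NT replicate 2, which leaves NT replicate 1 alone in its group, and 38 and 123 were called without NT replicate 1. A lone library was assumed to vary like the other group. The intron column, 1 and 2, gave 2 lower with DESeq2's size factors, 77 and 60 without a filter, 5 lower at a mean of at least 50, 14 and 5 with DESeq2, and from 0 to 462 lower and 0 to 653 higher with 1 library left out. Without IAA replicate 2 edgeR called 0 in introns (194 lower and 70 higher at an unadjusted p under 0.05).

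With the replicate number as a block the exon column gave 180 lower and 320 higher and the intron column 22 and 9, and DESeq2 with the replicate block gave 38 and 113, and 3 and 1. The labels give only a shared number. Deviations from the group means of same-numbered libraries correlated at 0.0613 over exons and 0.0557 over introns in CGR8, and at 0.355 in SYAT and 0.303 in wtSRCAP exons. In SYAT cells the block gave 49 and 27 and DESeq2 46 and 5. In wtSRCAP cells the block gave 280 and 332, DESeq2 gave 4 and 9, and without a library the 1 call was lost (0). For CGR8 minus SYAT, DESeq2 gave 2 and 15. For CGR8 minus wtSRCAP cells, the block gave 352 and 343, and DESeq2 gave 2 higher. Bach1, Mafg, Cyp1b1 and Stc2 passed with that block (edgeR adjusted p = 0.0104, 0.0179, 0.0207 and 0.0377), as did Jun, Jund, Creld2, Bmp4, Otx2 and Socs3, but not Atf4 (0.125) or Chac1 (0.36). The cause of these shifts was not tested.

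Over 90 named genes there were 1201 alternative values, of which 984 stayed on the same side of the threshold and in the same direction. Another 185 passed it where edgeR had not, and 6 no longer passed it. The other 26 changed direction, each in a result whose unadjusted p in the main fit was not under 0.05. Results with an unadjusted p under 0.05 in the main fit changed direction in 0 values. With 2 libraries per group and a median biological coefficient of variation of 0.1958, small differences are beyond reach.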
